A study of Mus musculus with 6 samples.

Results

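The genes described here encode the non-collagen part of the extracellular matrix: matrix glycoproteins, laminin chains and proteoglycans, 50 genes chosen by symbol out of the 21899 genes in the deposited table. Each was followed in polyA RNA of the liver in wild-type mice of the C57BL6J strain. The MCD mice (3 libraries) were fed a diet deficient in methionine and choline for 6 weeks, and the MCS mice (3 libraries) a diet with sufficient methionine and choline for the same time. The MCD diet is a model of metabolic dysfunction-associated steatohepatitis (MASH), and the genotype was the same on both diets. The labels do not say whether the replicates were separate animals, so the p-values measure the spread between these libraries.

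In the liver, most of the fibrous matrix is made by hepatic stellate cells and portal fibroblasts, while hepatocytes secrete soluble glycoproteins such as plasma fibronectin. Small leucine-rich proteoglycans sit on collagen fibrils and limit their growth, elastin is laid down on microfibrils of fibrillin, and latent TGF-beta is stored on the same microfibrils by its binding proteins. Laminins are trimers of 1 alpha, 1 beta and 1 gamma chain that form the sheet of basement membranes, where nidogens, perlecan and agrin join them to other components. Scarring livers are known to deposit many of these proteins.

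Total counts were 18443357, 21285045 and 20440745 in MCD replicates 1 to 3, and 21322771, 16615469 and 20783004 in MCS replicates 1 to 3. Levels are given as CPM (counts relative to the library size after TMM scaling) or, where genes are compared with each other, as the deposited TPM, which takes transcript length into account. A floor of 3 counts corresponds to 0.104 to 0.227 CPM. Albumin, the defining hepatocyte transcript, lay at 43222 to 71840 CPM in the MCD and 50635 to 73708 CPM in the MCS libraries. The MCD libraries stood apart from each other in these genes: MCD replicate 3 was the highest MCD library for 43 of 46 tested members (93.5%, against 42.4% of all tested genes), and MCD replicate 2 the lowest for 42. The median ratio of MCD replicate 3 to MCD replicate 2 was 3.69 over the members and 1.01 over all genes. Among the MCS libraries, replicate 3 was the highest for 31 of 46 members.

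The comparison asks how the RNA of these genes differed between the diets, and most of the differences that passed the test were increases in MCD livers. Of the 46 members with enough counts to be tested, 17 rose (37.0%, where 14.8% of all 12599 tested genes did) and 2 fell (4.35%, against 9.97% of all tested genes). The median log2 fold change was 1.40 over the tested members and 0.01 over all tested genes, and it was positive for 40 of 46 members. A member was called when its Benjamini-Hochberg adjusted p in edgeR's quasi-likelihood test, adjusted over all tested genes, was under 0.05. In CPM, all 3 MCD libraries lay above all 3 MCS libraries for 17 members (37.0%, against 23.9% of all genes). They lay below them for 4 (8.70%, against 21.3%), namely Lama3, Lamb3, Fn1 and Ecm1. The remaining 27 tested members did not pass, with adjusted p between 0.0576 and 0.991, and 23 of them had a positive fold change. Vcan, Thbs4, Fbn2 and Mfap5 had too few counts for the test and are described by their counts.

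The number of higher members depended on the libraries. It was 9, 34 and 12 without MCD replicate 1, 2 or 3, where 8.12%, 18.2% and 11.7% of all tested genes were called higher, and 6, 4 and 15 without MCS replicate 1, 2 or 3, where 7.27%, 7.22% and 11.0% were. Of the members that had not passed, Dcn, Bgn, Prelp, Ecm2, Thbs2, Dpt, Emilin1, Mfap4, Fbln1, Fbln2, Fbln5, Efemp1, Ltbp1, Lamb1 and Nid2 passed as higher and Fn1 as lower without MCD replicate 2 (edgeR adjusted p between 0.000999 and 0.0451). Without MCS replicate 3, Dcn and Ogn passed as higher and Fn1 as lower (edgeR adjusted p between 0.0208 and 0.0388). The fits with 1 library left out tested 46 to 49 members, and the fit with no count filter all 50. The counts of 9, 34 and 15 included genes among Vcan, Thbs4, Fbn2 and Mfap5, which the filter with all libraries had removed. So did the 16 members higher with no count filter, where 11.4% of all tested genes were higher. Thbs1, Efemp2, Ltbp3 and Nid1 passed as higher, and Lama3 and Lamb3 as lower, under each of the 15 other scalings, filters, tests and sets of libraries. Limma-voom ended the calls of Tnc, Postn, Eln, Fbn1, Ltbp2, Lama2, Lama5 and Lamc1, and the fit with no count filter those of Lum, Tnc and Lama2, and on log2(TPM + 1) Postn did not pass. Scaling by library size alone moved the median of all genes to 0.57 and the share of calls that were higher to 93.6%, against 59.7% with TMM, and called 30 members and 40.4% of all genes higher, and 2 members lower. Each call made with TMM kept its direction under that scaling.

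**Figure D1:**
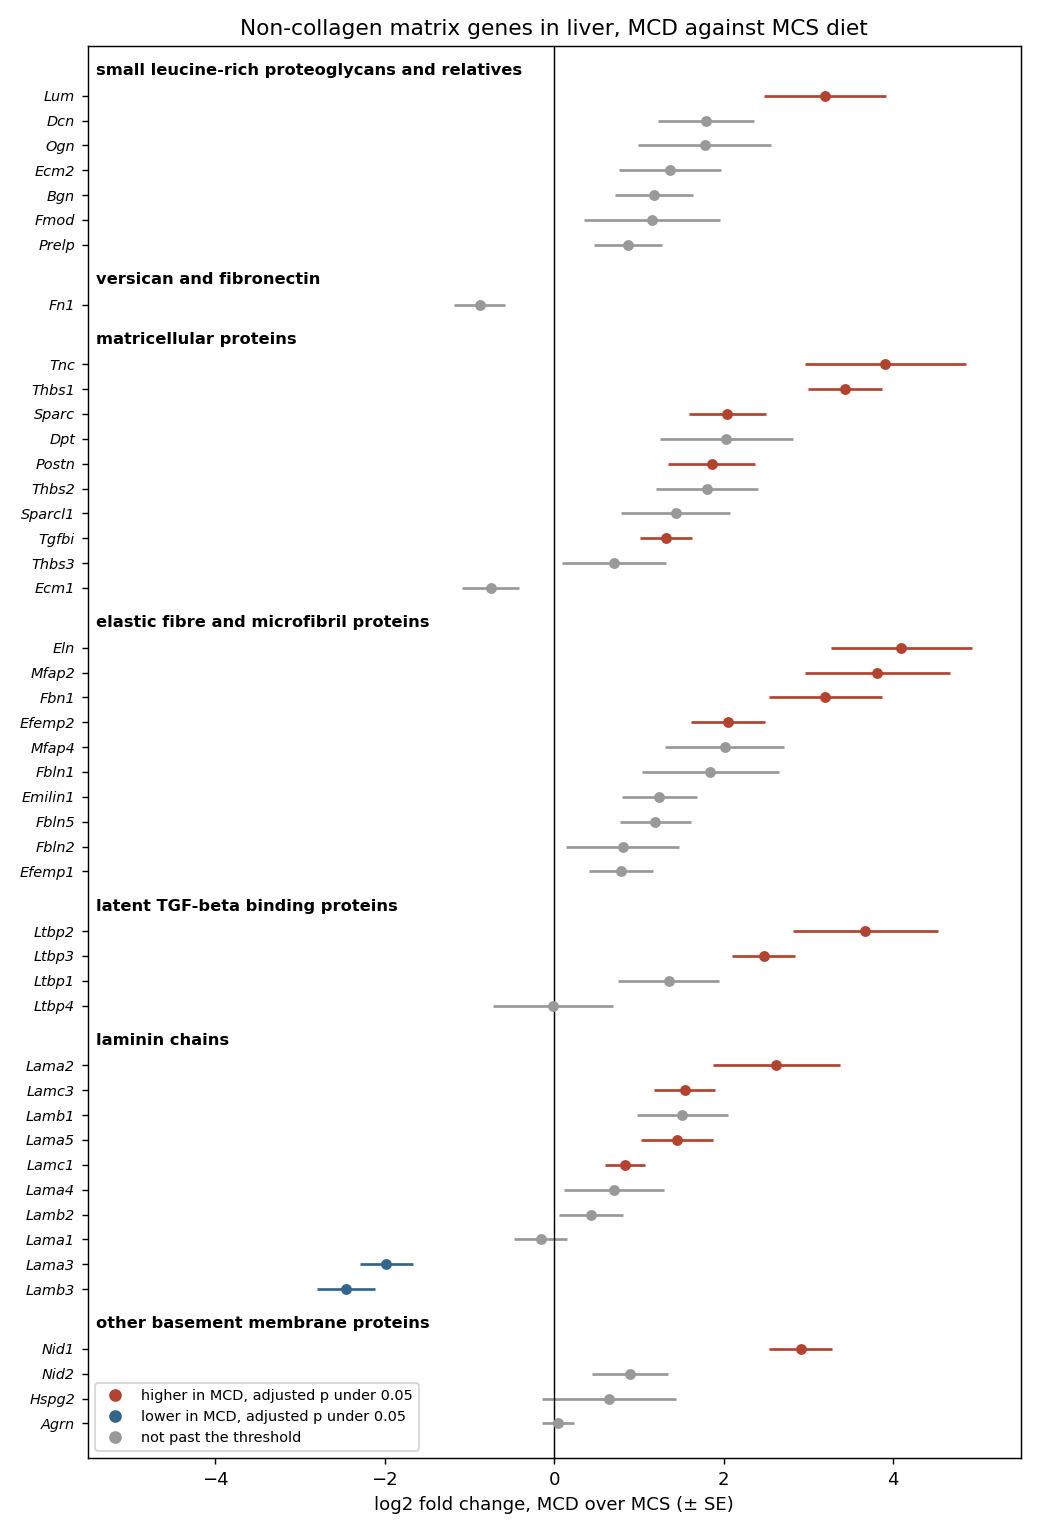
The plot gives the log2 fold change of MCD over MCS for each tested matrix gene, grouped by role, with bars of 1 SE from the quasi-likelihood fit. Most genes lie right of 0, and the laminin chains Lama3 and Lamb3 lie furthest to the left, at −1.98 and −2.46.

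Among the small leucine-rich proteoglycans and their relatives, Lum alone passed, and the other 6 of 7 genes had positive fold changes that did not pass. Lum encodes lumican, which spaces collagen fibrils. Lum (ENSMUSG00000036446) had 53.2, 18.5 and 139.9 CPM in MCD replicates 1 to 3, against 7.54, 6.35 and 9.10 CPM in MCS replicates 1 to 3. The groups did not overlap, although the MCD libraries spread far more widely than the MCS libraries. Its log2 fold change was 3.20 ± 0.72 (SE, n = 3 libraries per diet; edgeR adjusted p = 0.0223). The call was lost without MCD replicate 1, MCS replicate 1 or MCS replicate 2, with edgeR adjusted p between 0.0556 and 0.0846, and the log2 fold change without MCD replicate 3 was 2.22.

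Decorin, which binds collagen fibrils and TGF-beta, is the neighbour of Lum on chromosome 10 in the RefSeq gene order. Dcn had 250.3, 115 and 503 CPM in the MCD and 63.1, 57.8 and 129.5 CPM in the MCS libraries. MCD replicate 2 lay below MCS replicate 3, so the groups overlapped, and the log2 fold change of 1.79 ± 0.56 did not pass (edgeR adjusted p = 0.0576). Biglycan, the closest relative of decorin, gave the same order of libraries. Bgn had 278, 119 and 443 CPM in the MCD and 107, 92.8 and 170.5 CPM in the MCS libraries, for a log2 fold change of 1.18 ± 0.46 (edgeR adjusted p = 0.0990). Prelp, a proteoglycan that ties basement membranes to collagen, and Fmod, fibromodulin, lie next to each other on chromosome 1 in that order. Prelp averaged 102 ± 49.7 CPM in MCD and 55.7 ± 19.7 CPM in MCS livers (SD, n = 3 each), and Fmod 8.27 ± 7.32 CPM in MCD and 3.68 ± 2.72 CPM in MCS livers. The log2 fold changes were 0.87 and 1.16 (edgeR adjusted p = 0.155 and 0.326). Ogn, osteoglycin, and Ecm2, a leucine-rich relative, lay under 4 CPM in each of the 6 libraries and did not pass (log2 fold changes 1.78 and 1.37).

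Fibronectin, the glycoprotein that integrins assemble into the first fibrils of a provisional matrix and that hepatocytes also secrete into plasma, had lower values in MCD livers. Fn1 (ENSMUSG00000026193) had 2108, 2299 and 1566 CPM in the MCD and 4181, 4278 and 2499 CPM in the MCS libraries. In CPM each MCD library lay below each MCS library, and within each diet replicate 3 was the lowest. In TPM, MCS replicate 3, at 474, lay below MCD replicates 1 to 3, at 600, 550 and 530. The log2 fold change of −0.88 ± 0.30 did not pass with all libraries (edgeR adjusted p = 0.0635). Among the 15 other settings, 5 called Fn1 lower. These were DESeq2, the replicate block and the fits without MCD replicate 2, without MCS replicate 3 and without both libraries numbered 3. The call was absent under scaling by library size alone and on both TPM scales. Over the 15 settings the log2 fold change of Fn1 ran from −1.09 to −0.19. Versican, a large chondroitin sulfate proteoglycan of provisional matrix, was removed by the count filter with all libraries. Vcan had 27, 3 and 95 counts in the MCD and 5, 1 and 2 counts in the MCS libraries. The ratio of summed counts, corrected for library size, was 10.4 (95% counting interval 5.13 to 24.7), and it was 4.12 without MCD replicate 3 and 17.9 without MCS replicate 1.

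The products of the 11 matricellular genes modulate cell contact with the matrix more than they build it. Of these genes, 10 were tested, 5 rose and 5 did not pass, where 14.8% of all tested genes rose. Thrombospondin, which can free TGF-beta from its latent complex, showed the clearest difference. Thbs1 (ENSMUSG00000040152) had 11.4, 5.88 and 18.6 CPM in the MCD and 1.04, 0.982 and 1.27 CPM in the MCS libraries. The lowest MCD library was several times above the highest MCS library, and the log2 fold change was 3.43 ± 0.44 (edgeR adjusted p = 0.00148). Tgfbi, a secreted protein named for its induction by TGF-beta, had 139.5, 78.2 and 186 CPM in the MCD and 47.5, 45.8 and 68.0 CPM in the MCS libraries. MCD replicate 2 lay just above MCS replicate 3, and the log2 fold change was 1.32 ± 0.31 (edgeR adjusted p = 0.0177). Sparc, a collagen-binding protein of remodelling tissue, had 145, 73.5 and 271 CPM in the MCD and 39.1, 30.6 and 48.8 CPM in the MCS libraries. All MCD libraries exceeded all MCS libraries, with a log2 fold change of 2.04 ± 0.46 (edgeR adjusted p = 0.0194).

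Tenascin-C, an anti-adhesive glycoprotein of wounds that is scarce in healthy adult liver, was close to the floor in MCS livers. Tnc (ENSMUSG00000028364) had 9.08, 2.71 and 17.0 CPM in the MCD and 1.44, 0.0756 and 0.331 CPM in the MCS libraries, and MCS replicate 2 was below the floor of 3 counts. The fitted log2 fold change was 3.90 ± 0.95 (edgeR adjusted p = 0.0259), with 3.20 without MCD replicate 3 and 5.41 without MCS replicate 1. Periostin, which helps to cross-link collagen, had 1 MCD library far above the others. Postn (ENSMUSG00000027750) had 5.35, 4.25 and 15.7 CPM in the MCD and 3.11, 1.81 and 2.04 CPM in the MCS libraries, for a log2 fold change of 1.86 ± 0.51 (edgeR adjusted p = 0.0315). Without MCD replicate 3, Postn had a log2 fold change of 1.04 and did not pass (edgeR adjusted p = 0.0567). With a library left out, the call of Postn was also lost without any 1 of the MCS replicates (up to 0.116), that of Tnc without MCD replicate 1, MCD replicate 3, MCS replicate 2 or MCS replicate 3 (edgeR adjusted p up to 0.0746), and those of Sparc and Tgfbi without MCD replicate 1, MCS replicate 1 or MCS replicate 2 (up to 0.0709 and 0.0730).

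The other tested matricellular genes did not pass. Thbs2, a relative of Thbs1, had 9.85, 3.48 and 22.5 CPM in the MCD and 3.34, 3.17 and 3.75 CPM in the MCS libraries (log2 fold change 1.80 ± 0.60, edgeR adjusted p = 0.0674). Here MCD replicate 2 lay inside the range of the MCS libraries. Dpt, dermatopontin, which binds decorin, had MCD replicate 2 below all MCS libraries, with 14.8, 4.07 and 44.1 CPM in the MCD and 4.89, 4.46 and 6.07 CPM in the MCS libraries (log2 fold change 2.03, edgeR adjusted p = 0.105). Sparcl1, a relative of Sparc, and Thbs3 had log2 fold changes of 1.43 and 0.71 (edgeR adjusted p = 0.146 and 0.422). Ecm1, a glycoprotein known to restrain the activation of latent TGF-beta in mouse liver, was among the few members with lower values. Its levels were 67.2, 50.9 and 72.9 CPM in the MCD and 74.1, 75.3 and 171 CPM in the MCS libraries, and its log2 fold change of −0.75 ± 0.33 did not pass (edgeR adjusted p = 0.139). MCD replicate 3 and MCS replicate 1 nearly met, while MCS replicate 3 stood far above the rest. Thbs4 was not tested and had 7, 14 and 14 counts in the MCD libraries and 0 in each MCS library. With 3 counts over the MCS group as the floor, the ratio of MCD to MCS was 7.78, or 4.89 without MCS replicate 3. The lower 95% counting limit of the ratio over all libraries was 6.00.

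The elastic fibre and microfibril genes held the largest increase of all tested members. Of 12 genes, 10 were tested, 4 rose and 6 did not pass, where 14.8% of all tested genes rose. Elastin, the rubber-like core of the fibre, led them. Eln (ENSMUSG00000029675) had 16.7, 3.53 and 33.1 CPM in the MCD and 1.38, 0.756 and 0.938 CPM in the MCS libraries. Even MCD replicate 2 was above every MCS library, and the log2 fold change was 4.10 ± 0.83 (edgeR adjusted p = 0.0151). Fibrillin is the main microfibril protein. Fbn1 (ENSMUSG00000027204) had 18.1, 7.01 and 41.2 CPM in the MCD and 1.61, 2.42 and 3.20 CPM in the MCS libraries, for a log2 fold change of 3.19 ± 0.67 (edgeR adjusted p = 0.0163). In the GENCODE M21 annotation, 20.1% of the exonic bases of Fbn1 overlap a gene on the other strand, Gm9913; the sources do not say whether strand was kept, so reads of the pair cannot be told apart.

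Efemp2, a fibulin that brings lysyl oxidase to elastin, had a smaller and steadier difference. Efemp2 (ENSMUSG00000024909) had 9.98, 4.57 and 12.8 CPM in the MCD and 2.93, 1.28 and 2.32 CPM in the MCS libraries, for a log2 fold change of 2.05 ± 0.43 (edgeR adjusted p = 0.0117). Mfap2, a small glycoprotein bound to fibrillin, was near the floor in MCS livers. Its levels were 1.66, 0.679 and 2.93 CPM in the MCD and 0.115, 0 and 0.221 CPM in the MCS libraries, with 136 counts in all MCD libraries and 6 in all MCS libraries. The fitted log2 fold change of Mfap2 was 3.81 ± 0.86 (edgeR adjusted p = 0.0146), and the ratio of its summed counts was 15.1 (95% counting interval 6.77 to 41.9). Leaving out MCD replicate 3 gave log2 fold changes of 3.28 for Eln, 2.38 for Fbn1 and 3.21 for Mfap2, and leaving out MCS replicate 3 gave 4.65 for Mfap2. The calls of Eln, Fbn1 and Mfap2 were lost without MCS replicate 1 or MCS replicate 2 (edgeR adjusted p between 0.0513 and 0.0648).

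The 6 remaining tested elastic fibre genes did not pass. Mfap4 and Fbln5, which both bind elastin during fibre assembly, had log2 fold changes of 2.01 and 1.20 (edgeR adjusted p = 0.0656 and 0.0710). Mfap4 had 4.18, 0.860 and 5.99 CPM in the MCD and 1.09, 0.378 and 1.21 CPM in the MCS libraries. Emilin1, a glycoprotein at the border of elastin and microfibrils, had 36.6, 16.8 and 61.3 CPM in the MCD and 15.3, 12.8 and 20.4 CPM in the MCS libraries (log2 fold change 1.24, edgeR adjusted p = 0.0814). In both genes MCD replicate 2 was the MCD library inside the MCS range. Fbln1, Efemp1 and Fbln2, other fibulins, had log2 fold changes of 1.84, 0.79 and 0.81 with edgeR adjusted p of 0.135, 0.156 and 0.404. Fbn2, the fibrillin best known from embryonic tissue, was not tested. It had 17, 6 and 83 counts in the MCD libraries and 0 counts in each MCS library. By the same floor the ratio of MCD to MCS was 23.6, or 8.43 without MCD replicate 3. The lower 95% counting limit over all libraries was 18.8. Mfap5 had 4 counts in all MCD libraries and 1 in all MCS libraries, too few to compare.

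Of the 4 latent TGF-beta binding proteins, 2 rose, where 14.8% of all tested genes did. Ltbp3, which escorts latent TGF-beta out of the cell, was the more even of the pair. Ltbp3 (ENSMUSG00000024940) had 12.9, 8.42 and 22.1 CPM in the MCD and 3.34, 2.19 and 2.26 CPM in the MCS libraries, for a log2 fold change of 2.47 ± 0.37 (edgeR adjusted p = 0.00302). Ltbp2, which binds fibrillin microfibrils but not latent TGF-beta, differed by more and with a wider error. Ltbp2 (ENSMUSG00000002020) had 8.59, 3.44 and 22.0 CPM in the MCD and 0.978, 0.151 and 1.43 CPM in the MCS libraries, for a log2 fold change of 3.67 ± 0.85 (edgeR adjusted p = 0.0226). It was 2.75 without MCD replicate 3, and the call was lost without MCD replicate 1, MCS replicate 1 or MCS replicate 2 (edgeR adjusted p up to 0.0808). Ltbp1 had 10.2, 1.90 and 12.0 CPM in the MCD and 3.57, 2.42 and 3.42 CPM in the MCS libraries, with MCD replicate 2 below all MCS libraries, and did not pass (log2 fold change 1.35 ± 0.59, edgeR adjusted p = 0.133). Ltbp4, which also guides elastic fibre assembly, had 28.9, 13.8 and 65.9 CPM in the MCD and 20.4, 19.0 and 70.4 CPM in the MCS libraries. Replicate 3 of both diets was high, the log2 fold change was −0.02 ± 0.71 (edgeR adjusted p = 0.991), and its sign changed with the scaling.

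The TGF-beta ligands were read from the same fit. Tgfb2 had 3.01, 1.58 and 5.89 CPM in the MCD and 0.403, 0.529 and 0.221 CPM in the MCS libraries, and rose by a log2 fold change of 3.20 ± 0.61 (edgeR adjusted p = 0.00772; 2.59 without MCD replicate 3). Tgfb3 rose by 1.91 ± 0.51 (edgeR adjusted p = 0.0271), a call lost without MCD replicate 1, MCD replicate 3, MCS replicate 1 or MCS replicate 2 (up to 0.0949). For Tgfb1, the most abundant of the 3 ligands in TPM, the log2 fold change of 1.36 ± 0.41 did not pass (edgeR adjusted p = 0.0518), although its MCD libraries, at 19.1 to 47.3 CPM, lay above its MCS libraries, at 8.11 to 19.0 CPM.

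**Figure D2:**
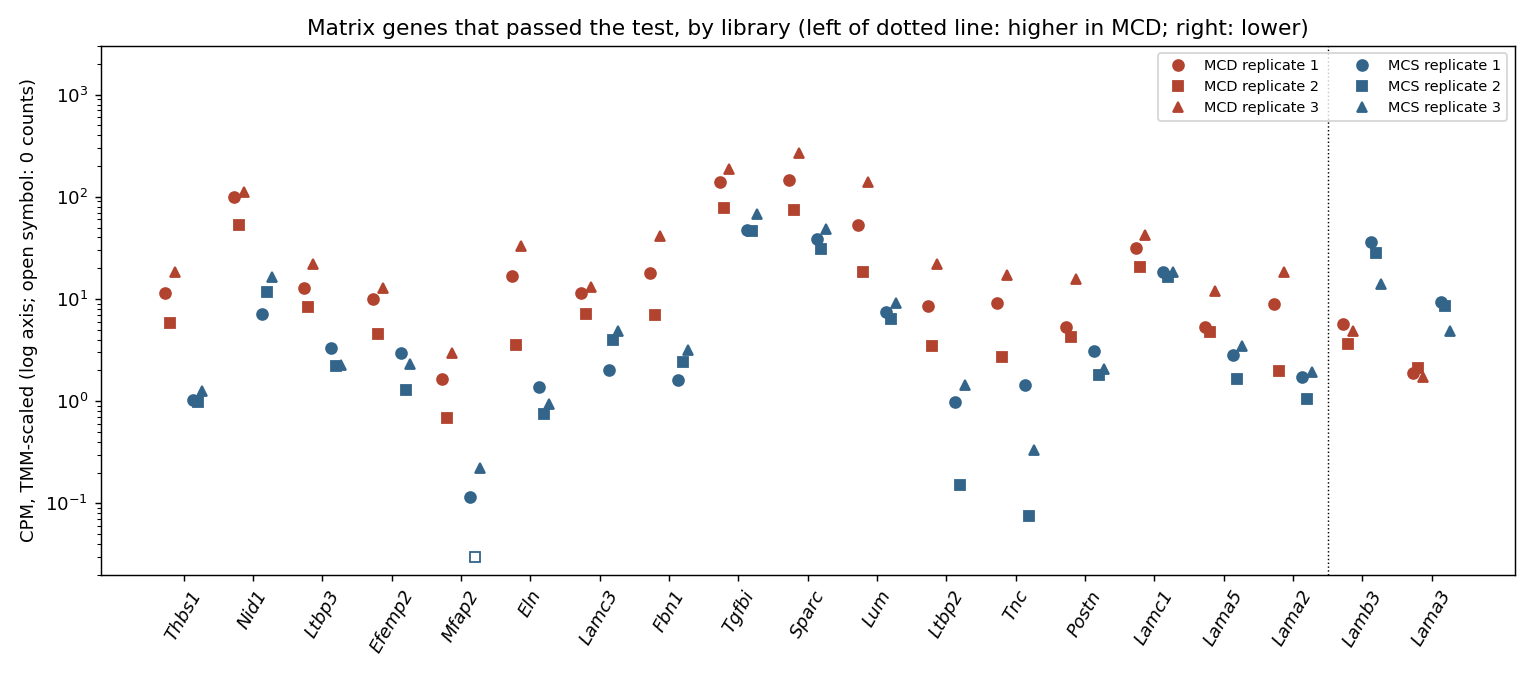
The CPM of the 19 matrix genes that passed the test is shown on a log axis, 1 symbol per library, with MCD left of MCS for each gene. MCD replicate 3 is the top MCD symbol for most of the higher genes, whereas Lama3 and Lamb3, right of the dotted line, have all MCD symbols below the MCS symbols.

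The laminin chains split in direction, while 14.8% of all tested genes rose and 9.97% fell. Of the 10 chains, 4 rose, 2 fell and 4 did not pass. Both that fell encode chains of the laminin that anchors epithelia, best known from skin. Lamb3 (ENSMUSG00000026639), a beta chain, had 5.71, 3.66 and 4.81 CPM in the MCD and 35.9, 28.2 and 14.0 CPM in the MCS libraries. The MCD libraries were close together, and even the lowest MCS library was well above them. Its log2 fold change was −2.46 ± 0.35 (edgeR adjusted p = 0.00268). Lama3 (ENSMUSG00000024421), the alpha chain, had 1.89, 2.13 and 1.74 CPM in the MCD and 9.38, 8.46 and 4.91 CPM in the MCS libraries, for a log2 fold change of −1.98 ± 0.31 (edgeR adjusted p = 0.00359). In both genes MCS replicate 3 was the lowest MCS library. Across all other settings the log2 fold change stayed between −2.77 and −1.37 for Lamb3 and between −2.22 and −0.64 for Lama3.

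The laminin chains that rose included members of each chain type other than beta. Lamc3, a gamma chain of restricted distribution, had 11.3, 7.15 and 13.0 CPM in the MCD and 2.01, 3.93 and 4.91 CPM in the MCS libraries (log2 fold change 1.54 ± 0.36, edgeR adjusted p = 0.0160). Lamc1, the gamma chain of most laminins, differed least among the called genes, with 31.5, 20.5 and 42.1 CPM in the MCD and 18.3, 16.4 and 18.3 CPM in the MCS libraries (log2 fold change 0.83 ± 0.24, edgeR adjusted p = 0.0338). MCD replicate 2 was only slightly above the highest MCS library. Lama5, an alpha chain of epithelial and vascular basement membranes, had 5.31, 4.71 and 11.9 CPM in the MCD and 2.82, 1.66 and 3.48 CPM in the MCS libraries (log2 fold change 1.45 ± 0.43, edgeR adjusted p = 0.0373). Lama2, the alpha chain known from muscle, had 8.86, 1.99 and 18.4 CPM in the MCD and 1.73, 1.06 and 1.93 CPM in the MCS libraries (log2 fold change 2.62 ± 0.75, edgeR adjusted p = 0.0415). MCD replicate 2 of Lama2 was barely above MCS replicate 3, and without MCD replicate 3 the log2 fold change was 1.77. The calls of Lama2, Lama5 and Lamc1 were lost when any 1 library other than MCD replicate 2 was left out (edgeR adjusted p up to 0.135, 0.124 and 0.116), and that of Lamc3 without MCD replicate 1 or MCS replicate 2 (0.0582 and 0.0567). Lamb1, the widespread beta chain, had 13.1, 6.20 and 28.9 CPM in the MCD and 4.49, 4.99 and 7.45 CPM in the MCS libraries and did not pass (log2 fold change 1.51 ± 0.54, edgeR adjusted p = 0.0797). Lama4, Lamb2 and Lama1 had log2 fold changes of 0.71, 0.43 and −0.16, with edgeR adjusted p of 0.408, 0.428 and 0.733.

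On the TPM scale, which allows chains to be set against each other, the order within a chain type differed between the diets. Lamb3 over Lamb1 was 0.603, 0.792 and 0.227 in the MCD libraries, against 11.0, 7.71 and 2.55 in the MCS libraries. The epithelial beta chain was therefore above Lamb1 in each MCS library and below it in each MCD library. Lama3 over Lama5 was 0.664, 0.927 and 0.272 in the MCD and 6.23, 9.48 and 2.65 in the MCS libraries, the same switch among alpha chains. Lamb3 over Lamc1 was 0.326, 0.238 and 0.206 in the MCD and 3.29, 2.62 and 1.37 in the MCS libraries. Lamc1, at 9.14, 6.65 and 14.3 TPM, had the highest mean of the laminin chains in MCD livers. In MCS livers the highest mean was that of Lamb3, at 11.5, 8.76 and 4.74 TPM in MCS replicates 1 to 3.

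**Figure D3:**
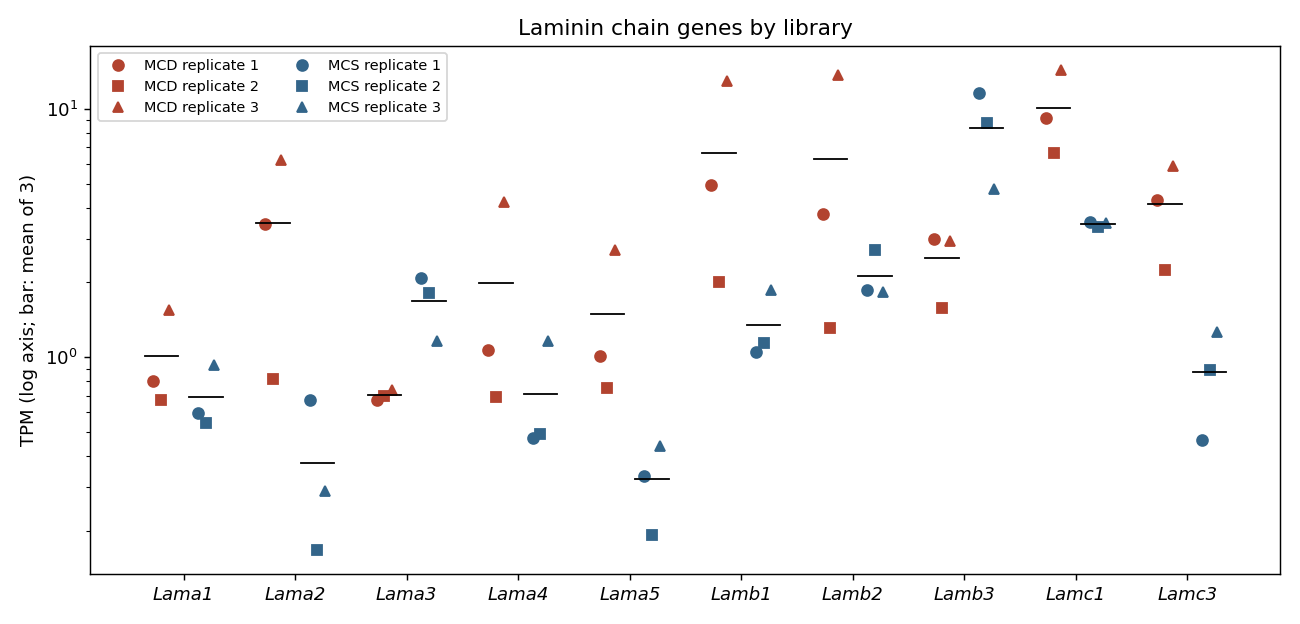
The TPM of the 10 laminin chain genes is shown on a log axis for each library, MCD left of MCS, with a bar at the mean of 3. Lama3 and Lamb3 are the chains whose MCD symbols all lie below the MCS symbols.

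Nidogen, which links the laminin network to collagen IV, had one of the steadiest increases. Nid1 (ENSMUSG00000005397) had 100.3, 53.4 and 112 CPM in the MCD and 7.19, 11.6 and 16.5 CPM in the MCS libraries. The lowest MCD library was more than 3-fold above the highest MCS library, and the log2 fold change was 2.91 ± 0.38 (edgeR adjusted p = 0.00248). Its relative Nid2 had 4.54, 2.81 and 8.18 CPM in the MCD and 4.08, 1.96 and 2.26 CPM in the MCS libraries and did not pass (log2 fold change 0.90, edgeR adjusted p = 0.170). Perlecan, encoded by Hspg2, is a heparan sulfate proteoglycan of vessels and sinusoids, and its levels followed the replicates more than the diets. Hspg2 had 21.1, 11.1 and 77.5 CPM in the MCD and 14.2, 13.1 and 42.5 CPM in the MCS libraries (log2 fold change 0.65 ± 0.79, edgeR adjusted p = 0.583). Agrin, a heparan sulfate proteoglycan that binds laminin, overlapped fully. Agrn had 36.7, 29.5 and 45.1 CPM in the MCD and 36.6, 41.8 and 29.9 CPM in the MCS libraries (log2 fold change 0.04 ± 0.19, edgeR adjusted p = 0.890).

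Because basement membrane genes moved in both directions, the 250 bases upstream of the start are shown for Lama2, Lama5 and Nid1, which rose, and for Lamb3, which fell. They are RefSeq sequences of build GRCm38.p6, 5′ to 3′ on the strand of the gene. Capitals mark matches, on either strand, to CAGAC (a SMAD element), CATTCC (TEAD), TGANTCA (AP-1), GGGCGG (Sp factors) and TATAAA (the TATA box), and no marked match overlapped another. The windows are chr10:27616943-27617192 (minus strand) for Lama2, chr2:180225860-180226109 (minus strand) for Lama5, chr13:13437352-13437601 (plus strand) for Nid1 and chr1:193301993-193302242 (plus strand) for Lamb3, at the downstream of its 2 starts.
Lama2: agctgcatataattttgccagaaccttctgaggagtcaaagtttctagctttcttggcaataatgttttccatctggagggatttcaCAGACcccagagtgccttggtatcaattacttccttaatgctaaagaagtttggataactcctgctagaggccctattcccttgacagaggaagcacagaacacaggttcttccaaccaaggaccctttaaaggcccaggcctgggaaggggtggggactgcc
Lama5: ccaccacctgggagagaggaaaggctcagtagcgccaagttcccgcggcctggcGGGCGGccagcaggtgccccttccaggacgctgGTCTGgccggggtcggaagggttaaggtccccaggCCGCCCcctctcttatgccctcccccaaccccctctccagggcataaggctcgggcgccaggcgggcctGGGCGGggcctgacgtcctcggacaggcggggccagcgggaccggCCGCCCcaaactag
Nid1: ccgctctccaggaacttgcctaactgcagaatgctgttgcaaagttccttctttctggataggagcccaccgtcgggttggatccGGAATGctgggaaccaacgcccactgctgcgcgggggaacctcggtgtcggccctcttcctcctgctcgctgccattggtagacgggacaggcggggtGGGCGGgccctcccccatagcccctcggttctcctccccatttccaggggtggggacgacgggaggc
Lamb3: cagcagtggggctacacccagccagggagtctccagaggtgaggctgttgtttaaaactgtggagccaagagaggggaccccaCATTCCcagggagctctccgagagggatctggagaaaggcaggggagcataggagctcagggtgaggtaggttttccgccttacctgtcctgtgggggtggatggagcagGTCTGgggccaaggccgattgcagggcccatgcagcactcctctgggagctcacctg

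Lama2 held 1 CAGAC match, Lama5 held 1 CAGAC and 4 GGGCGG matches, Nid1 held 1 CATTCC and 1 GGGCGG match, and Lamb3 held 1 CAGAC and 1 CATTCC match. Their GC content was 47.2%, 72.4%, 64.4% and 61.2%. Of all 32851 windows of the same length, 42.2% held CAGAC, 12.6% CATTCC, 6.75% TGANTCA, 32.7% GGGCGG and 12.4% TATAAA. Among the 17 windows of genes that rose, 10 held CAGAC, 2 CATTCC, 0 TGANTCA, 11 GGGCGG and 3 TATAAA. Among all 47 windows of members, which came from 35 genes, 25 held CAGAC, 5 CATTCC, 2 TGANTCA, 28 GGGCGG and 6 TATAAA. Of the 2 windows of genes that fell, both of Lamb3, 2 held CAGAC and 1 CATTCC. The window table covered 35 of the 50 genes and 13 of the 19 that passed, and a match describes these letters only.

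In TPM, more matrix genes passed a given level on the MCD diet, on a scale where the median log2 difference of all tested genes was 0.53 (log2(TPM + 1)). Of the 50 genes, 19 averaged above 10 TPM in MCD livers and 8 in MCS livers, while 7 averaged under 1 TPM in MCD and 25 in MCS livers. Fn1 had the highest level on both diets, at 560.0 ± 36.3 TPM in MCD and 651 ± 153 TPM in MCS livers (SD, n = 3 each). It made up 33.0 ± 17.1% of the summed TPM of the 50 genes in MCD livers, against 62.3 ± 15.7% in MCS livers. Dcn came second in MCD livers, at 390.0 ± 319 TPM, against 66.0 ± 35.0 TPM in MCS livers, where Ecm1 came second at 106 ± 71.3 TPM. In MCD livers the mean of Fn1 lay within the SD of Dcn, and Dcn and Bgn (271 ± 193 TPM) lay within each other's SD. In MCS livers Fn1 stood above Ecm1 by more than their SDs, while Ecm1, Bgn (70.7 ± 27.2 TPM) and Dcn did not differ beyond theirs. Lum ranked 7 in MCD livers at 69.7 ± 69.9 TPM and 13 in MCS livers at 4.31 ± 0.985 TPM. Nid1 ranked 9 in MCD livers at 33.1 ± 15.9 TPM and 18 in MCS livers at 2.67 ± 1.16 TPM.

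The summed TPM of the small leucine-rich proteoglycans was 676, 250.5 and 1491 in the MCD and 131, 114 and 249 in the MCS libraries. MCD replicate 2 was thus level with MCS replicate 3. The matricellular sum was 405, 197 and 792 in the MCD and 124, 113 and 269 in the MCS libraries, an overlap of the same libraries. For the elastic fibre and microfibril genes the sums were 91.5, 32.8 and 179 in the MCD and 18.5, 15.2 and 27.1 in the MCS libraries, which did not overlap in TPM. On that scale the median log2 difference of all tested genes was 0.53 (log2(TPM + 1)). In CPM, the summed level of these genes in MCD replicate 2 was not above that in MCS replicate 3. The laminin chains summed to 32.1, 17.4 and 65.2 in the MCD and 22.6, 20.1 and 17.1 in the MCS libraries, which overlapped, as their members moved both ways.

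Markers of several cell types moved with the diet or with the libraries. In bulk RNA, fewer cells of a type and less RNA per cell cannot be told apart. The summed level of 12 hepatic stellate cell markers was 169 to 470 CPM in the MCD and 109 to 224 CPM in the MCS libraries, with 4 of 11 tested markers higher, and MCD replicate 3 was the highest MCD library for 11 of 12. Markers of recruited macrophages summed to 847 to 2125 CPM in the MCD and 39.4 to 43.1 CPM in the MCS libraries, with 10 of 10 higher. Cholangiocyte markers summed to 20.0 to 55.0 CPM in the MCD and 7.56 to 8.92 CPM in the MCS libraries, with 6 of 7 tested higher. Portal fibroblast markers summed to 102 to 146 CPM in the MCD and 54.2 to 69.3 CPM in the MCS libraries, with 3 of 5 tested higher. Sinusoidal endothelial markers summed to 84.2 to 482 CPM in the MCD and 150 to 601 CPM in the MCS libraries and were highest in replicate 3 of each diet, with edgeR adjusted p between 0.309 and 0.838 for the 10 markers. None of the markers in these 5 lists was at 0 in all libraries. Hepatocyte markers summed to 62632 to 102658 CPM in the MCD and 95623 to 118281 CPM in the MCS libraries, with 3 of 10 lower. Myofibroblast and smooth muscle markers summed to 15.5 to 49.4 CPM in the MCD and 7.56 to 18.9 CPM in the MCS libraries (1 of 5 tested higher). Mesothelial markers summed to 5.43 to 12.8 CPM in the MCD and 7.40 to 14.9 CPM in the MCS libraries (2 of 6 tested lower), and Kupffer cell markers to 223 to 390 CPM in the MCD and 291 to 367 CPM in the MCS libraries (2 of 6 lower). Markers of other endothelial cells summed to 53.6 to 140 CPM in the MCD and 51.7 to 93.3 CPM in the MCS libraries (1 of 7 tested higher). The lists share markers: Cd34 is in the portal fibroblast and other endothelial lists, and Krt19 in the mesothelial and cholangiocyte lists. Platelet markers summed to 2.81 to 5.58 CPM in the MCD and 0.756 to 3.36 CPM in the MCS libraries, with Gp1bb at 0 in all 6. Over all tested genes, 14.8% were higher and 9.97% lower. The part of these cell types in the results was not tested.

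The stellate and sinusoidal endothelial sums were used as denominators. Divided by the stellate marker sum, 11 of the 17 higher members still had all MCD libraries above all MCS libraries: Lum, Tnc, Sparc, Thbs1, Eln, Fbn1, Mfap2, Efemp2, Ltbp2, Ltbp3 and Nid1. Both lower members, Lama3 and Lamb3, still had all MCD libraries below on the stellate scale. Over the 46 tested members, 12 lay above and 7 below on that scale, where 6.74% and 15.3% of all tested genes did. Divided by the sinusoidal endothelial sum, 16 of the 17 higher members lay above, all but Lamc1, and so did 33 of the 46 tested members, where 12.9% of all genes did. On that scale none of the 46 members, Lama3 and Lamb3 included, had all MCD libraries below all MCS libraries, where 0.54% of all genes did.

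**Figure D4:**
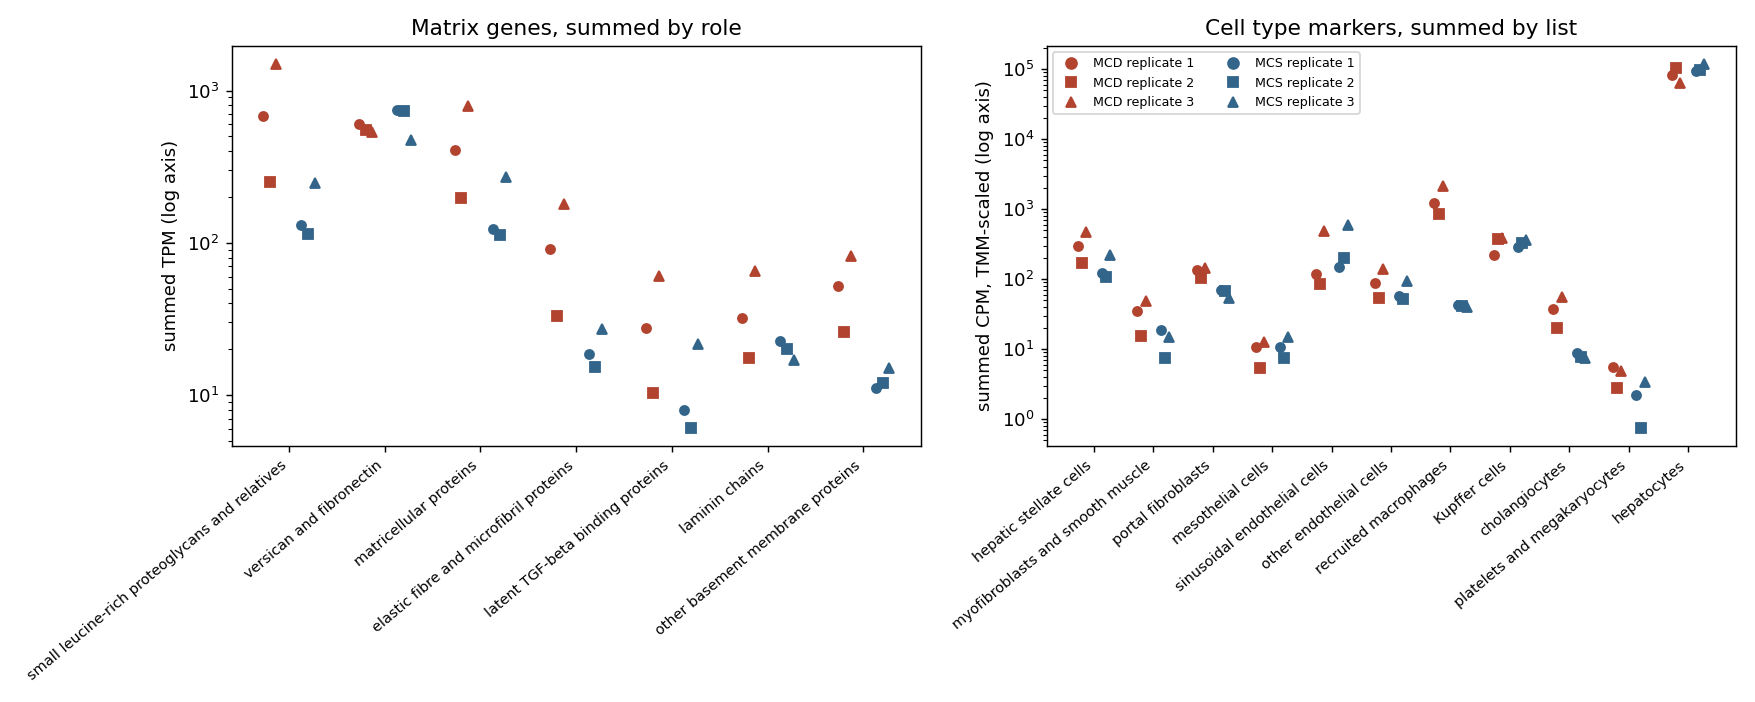
The left panel sums the TPM of the matrix genes of each role and the right panel the CPM of each marker list, 1 symbol per library on log axes, MCD left of MCS. MCD replicate 3 is the highest symbol for most matrix roles, as it is among the MCD libraries for the stellate, endothelial, macrophage and cholangiocyte markers.

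Other genes of the same biology were read from the same fit. Of 78 other non-collagen matrix genes, 48 were tested, 15 rose and 6 fell, where 14.8% and 9.97% of all tested genes did. Mfge8, a glycoprotein that bridges dying cells to integrins, had 84.7, 66.5 and 118 CPM in the MCD and 17.8, 19.3 and 17.3 CPM in the MCS libraries (log2 fold change 2.31 ± 0.21, edgeR adjusted p = 0.000424). Ccn5, a matricellular relative of connective tissue growth factor, had a fitted log2 fold change of 5.75 ± 0.72 (edgeR adjusted p = 0.00160; 7.23 without MCS replicate 2), with 217, 99 and 400 counts in the MCD and 1, 6 and 1 in the MCS libraries. Spock2, a testican, and Fras1, a basement membrane protein of epithelia, fell by 2.27 ± 0.42 and 1.60 ± 0.36 on the log2 scale (edgeR adjusted p = 0.00707 and 0.0144; that of Fras1 was 0.0673 without MCS replicate 2).

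Of 41 genes for enzymes that build and sulfate glycosaminoglycan chains, 37 were tested, 5 rose and 4 fell. These counts were near the shares over all tested genes, of which 14.8% rose and 9.97% fell. Chst11, a chondroitin sulfotransferase, and Xylt1, which starts the chains on proteoglycan cores, rose by log2 fold changes of 4.11 ± 0.57 and 3.02 ± 0.53 (edgeR adjusted p = 0.00215 and 0.00548), with 3.51 for Chst11 without MCD replicate 3. Ndst1, a heparan sulfate sulfotransferase, and B3gat3, which completes the linker of the chains, fell by 0.90 ± 0.19 and 0.77 ± 0.17 on the log2 scale (edgeR adjusted p = 0.0110 and 0.0135). Both calls were lost without MCS replicate 1 or MCS replicate 2, and that of Ndst1 also without MCD replicate 1 (edgeR adjusted p up to 0.0645). With library size alone and on both TPM scales the calls of Ndst1, B3gat3, Fras1 and the syndecan Sdc1 were lost too, with log2 fold changes as small as −0.23, −0.07, −0.21 and −0.23, and that of Spock2 was lost on log2(TPM + 1), at −0.43. Of 26 matrix receptors, 23 were tested, 6 rose and 3 fell, where 14.8% and 9.97% of all tested genes did. Cd44, the hyaluronan receptor, and Ddr1, a collagen receptor kinase, rose by log2 fold changes of 2.32 ± 0.27 and 2.70 ± 0.34 (edgeR adjusted p = 0.00126 and 0.00142). The syndecans Sdc4 and Sdc1, cell-surface heparan sulfate proteoglycans, fell by 1.07 ± 0.22 and 0.88 ± 0.22 on the log2 scale (edgeR adjusted p = 0.0103 and 0.0229), calls lost without MCD replicate 1 or MCS replicate 2, and for Sdc1 also without MCS replicate 1 (0.0507 or more, and 0.0806 or more).

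In the authors' deposited table, 34 of the 50 members were higher and 2 lower in MCD at an FDR under 0.05, where 20.5% and 1.31% of all its 21899 genes were. The 17 members that rose and the 2 that fell here have the same direction and pass in the authors' deposited table. A further 14 that did not pass here and 3 not tested here were higher in the authors' deposited table, whose log2 fold changes had a median of 0.69 over the genes tested here. By the annotation in the authors' deposited table, 24 members belong to the basement membrane, of which 10 rose, 2 fell, 11 did not pass and 1 was not tested. A group of 18 are listed under ECM-receptor interaction, of which 6 rose and 2 fell. Of all 12599 genes tested here, 14.8% rose and 9.97% fell.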

How the data were processed

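Liver polyA RNA was sequenced in 6 libraries, 3 per diet, grouped by the diet in their titles. The submitters' processing notes name build GRCm39 and, without saying what each did, the tools RSEM, StringTie 1.3.1, HISAT2 2.1.0, Bowtie2 2.2.8 and fastp 0.18.0. The deposited counts are whole numbers. Because 64 of the values are 0 where the TPM is not, they were taken to be RSEM-type estimated counts (also called expected counts) that the authors rounded, and no source used here names the counting tool. The TPM values were deposited by the authors, as were the log2 fold change and the FDR (a q-value or adjusted p-value) of the authors' own comparison. Members and lists were chosen with earlier results of these data known. RSEM-type estimates can share reads among similar genes.

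From the counts, edgeR 4.0.16 in R 4.3.3 was run with TMM scaling, filterByExpr by group (minimum count 10) and a robust quasi-likelihood fit with diet as its only term. Of 21899 genes, 5317 had 0 counts throughout and 12599 were tested. Calls were made at a Benjamini-Hochberg adjusted p under 0.05 over all tested genes. Each SE is the size of the log2 fold change over the square root of the F statistic. TMM factors were 1.21, 1.04 and 1.41 for MCD and 0.816, 0.797 and 0.873 for MCS replicates 1 to 3. Counting intervals (95%) and the floor of 3 counts cover counting error only. No 2 libraries of a diet agreed within sampling noise, with chi-square per degree of freedom of 13.7 to 151. Rows without a gene name numbered 30. Promoter windows came from RefSeq, build GRCm38.p6, and exon overlaps from GENCODE M21, whose build differs from that of the files, so no coordinates of genes are given.

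Values in every library are given for the called members of each role with the smallest adjusted p and for those opposite to their role, and further members were added after their values were seen. From each other list the 2 called genes with the smallest p in each direction are named, and Tgfb1 was added after its values were seen. Some results are not reported here. Alternatives were other scalings, no count filter, DESeq2 1.42.0, limma-voom (limma 3.58.1), limma on log2(TPM + 1) and log2(TPM + 0.1), a replicate block, each library left out in turn and, chosen after seeing the data, both libraries numbered 3 left out. The code was tested on simulated data.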

Additional observations from a re-analysis of the deposited data

How the results depend on the processing

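The count of higher members was 17 with all libraries and TMM, 30 with library size alone, 26 with DESeq2, 9 with limma-voom and 11 without both libraries numbered 3 (14.8%, 40.4%, 16.9%, 11.7% and 14.6% of all tested genes), and it ranged from 4 to 34 with 1 library left out. The count of lower members was 2 or 3 under all settings. Of all genes, 3117 were called, 5443 with library size alone, 5713 and 5992 on log2(TPM + 1) and log2(TPM + 0.1), and 1347 to 4435 with 1 library left out. Whether the replicate numbers pair the samples could not be decided from the correlations. Deviations of same-numbered libraries correlated at 0.06, 0.15 and 0.25, and those of differently numbered libraries at −0.22 to 0.13. MCS replicate 1 correlated better with MCD replicate 2 (0.13) than with MCD replicate 1. With the replicate block 29 members were higher and 3 lower, Fn1 being the added one. Log2 fold changes that reversed all belonged to members that had not passed. Ltbp4 became 0.60 with library size alone, 0.67 and 0.72 on the TPM scales with pseudocounts of 1 and 0.1, 0.12 without MCD replicate 1, 0.34 without MCD replicate 2, 0.87 without MCS replicate 3 and 0.12 without both libraries numbered 3. Lama1 became 0.42 with library size alone, 0.23 and 0.44 on the TPM scales and 0.056 without MCS replicate 3, and Ecm1 0.17 and 0.18 on the TPM scales. Without MCD replicate 3, Fbln2 became −0.13, Lama4 −0.23, Lamb2 −0.043, Hspg2 −0.54 and Agrn −0.12. Agrn was −0.09 without MCS replicate 3 and −0.24 without both libraries numbered 3, where Thbs3 was −0.19. With 1 library left out, Fbln2 ran to 1.25, Ltbp4 from −0.78, Lama1 from −0.44, Lama4 to 1.19, Lamb2 to 0.73, Hspg2 to 1.41 and Agrn to 0.15. The cause was not tested. The depth limits Vcan, Thbs4, Fbn2 and Mfap5, which had too few counts for the test with all libraries and the count filter. With no count filter all 50 members were tested, and 16 were higher.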
